A study of Mus musculus with 15 samples.

Results

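The hepatokine genes described here encode proteins that the liver secretes, or proteins that bind them: the activin and inhibin β subunits Inhba, Inhbb, Inhbc and Inhbe, the activin-binding protein follistatin (Fst), fetuin-A (Ahsg), fetuin-B (Fetub), leukocyte cell-derived chemotaxin 2 (Lect2), adropin (Enho) and angiopoietin-like 6 (Angptl6). These 10 genes were taken by symbol from the probe table of the array, and 9 of them had a transcript cluster with a single symbol. The cluster of Angptl6 also carries the symbol of a second gene, Shfl, so Angptl6 was not analysed here. The 9 genes are part of 22180 genes tested, from 41345 transcript clusters. The rule that picks them uses names and no measured values, and the list of names was drawn up with earlier results of these data known.

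RNA from the livers of 15 male apoE3L.CETP mice was hybridized to Affymetrix Mouse Gene 2.0 ST arrays, 1 for each mouse. The groups were RYGB (Roux-en-Y gastric bypass, 6 arrays), BWm (sham surgery and body weight matched to the bypass mice, 4 arrays) and Sham AL (sham surgery and feeding ad libitum, 5 arrays). All groups had the apoE3L.CETP genotype, a transgenic model of human-like lipoproteins, were labelled 9 to 12 weeks old, were kept on food of 60% fat and 0.25% cholesterol during the 6 weeks before surgery, and were killed 20 days after it. Per the design text, the BWm group served to tell effects of the operation from those of weight loss. There was no group without the transgenes or without the diet, and all mice were male. The pieces of liver were whole tissue, so fewer cells of a type and less RNA per cell cannot be told apart. Any 2 of the 3 comparisons share a group of arrays, so their values for a gene are not independent of each other.

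Activins are dimers of β subunits that signal through type II and type I serine/threonine kinase receptors to SMAD2 and SMAD3, and follistatin binds them and blocks that step. The subunits of Inhbc and Inhbe are made mainly by hepatocytes, and activin E from the liver acts on fat cells through the receptor ALK7, the product of Acvr1c. Fetuin-A and fetuin-B are abundant plasma proteins of the cystatin superfamily. Fetuin-A inhibits the insulin receptor tyrosine kinase and binds calcium phosphate, and fetuin-B inhibits astacin-type proteases. LECT2 is a hepatocyte product linked to insulin resistance in muscle, and adropin is a small secreted peptide linked to the balance of glucose and fat oxidation.

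The 250 bases before the transcription start are shown for 4 genes, from RefSeq (GRCm38.p6). Fetub and Lect2 were taken because they had the smallest p values against Sham AL among genes with an entry. Inhbe and Inhbc were taken because they are chromosomal neighbours that varied together within groups. Of the 9 genes measured, Fst and Enho are named only. Bases are written 5′ to 3′ on the strand of the gene, and capitals mark motif matches. The windows are chr16:22918132-22918381 (plus strand) and chr16:22919972-22920221 (plus strand) for the first and second annotated starts of Fetub, chr13:56548539-56548788 (minus strand) for Lect2, chr10:127351849-127352098 (minus strand) for Inhbe and chr10:127370549-127370798 (minus strand) for Inhbc.
Fetub first start: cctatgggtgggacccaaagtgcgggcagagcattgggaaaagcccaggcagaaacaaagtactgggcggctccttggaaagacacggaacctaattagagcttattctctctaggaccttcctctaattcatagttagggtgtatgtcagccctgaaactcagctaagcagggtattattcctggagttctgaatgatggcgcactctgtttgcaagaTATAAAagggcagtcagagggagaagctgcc
Fetub second start: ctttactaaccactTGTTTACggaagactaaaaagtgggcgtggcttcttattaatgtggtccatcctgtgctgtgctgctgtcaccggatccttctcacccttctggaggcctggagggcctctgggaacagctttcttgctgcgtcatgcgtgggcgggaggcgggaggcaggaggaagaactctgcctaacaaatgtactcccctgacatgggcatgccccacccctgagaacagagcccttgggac
Lect2: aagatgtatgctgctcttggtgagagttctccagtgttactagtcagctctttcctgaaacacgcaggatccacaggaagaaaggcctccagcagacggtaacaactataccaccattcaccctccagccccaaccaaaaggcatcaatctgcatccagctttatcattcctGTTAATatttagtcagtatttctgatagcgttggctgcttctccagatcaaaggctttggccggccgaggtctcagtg
Inhbe: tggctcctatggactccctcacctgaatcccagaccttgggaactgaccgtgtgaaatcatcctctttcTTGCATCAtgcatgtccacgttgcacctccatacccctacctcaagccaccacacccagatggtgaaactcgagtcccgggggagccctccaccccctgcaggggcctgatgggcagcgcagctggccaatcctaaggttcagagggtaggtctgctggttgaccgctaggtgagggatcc
Inhbc: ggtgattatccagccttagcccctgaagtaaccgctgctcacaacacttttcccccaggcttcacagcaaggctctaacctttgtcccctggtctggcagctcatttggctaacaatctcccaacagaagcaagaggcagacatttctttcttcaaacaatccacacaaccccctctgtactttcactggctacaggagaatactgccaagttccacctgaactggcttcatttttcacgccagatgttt

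Both strands were searched for 6 motifs in these windows and in 32851 windows of the same length from RefSeq. The first Fetub window held the TATA box TATAAA at -31, a motif found in 12.4% of all windows. The second Fetub window held the forkhead motif TGTTTAC at -236, which 3.17% of windows hold. The Lect2 window held the HNF1 motif GTTAAT at -78, present in 6.43% of windows, and the Inhbe window held the C/EBP-ATF element TGATGCAA at -181 on the other strand, present in 0.791% of windows. No match was found in the Inhbc window, and none of the matches overlapped another motif. The STAT element TTCNNNGAA, present in 7.02% of windows, and the cAMP response element TGACGTCA, present in 1.55%, were found in none of the 9 windows of the 8 named genes with an entry. A match is a stretch of letters and was not tested for binding.

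None of the 9 genes passed an adjusted p of 0.05 in any of the 3 comparisons (limma, Benjamini-Hochberg adjustment over all 22180 genes). Across all genes, 1.38% passed in RYGB against Sham AL, 6.36% in RYGB against BWm and 2.84% in BWm against Sham AL. The share was 0.938% for higher genes alone in RYGB against Sham AL and 2.34% for lower genes alone in RYGB against BWm. At an unadjusted p under 0.05 the counts were 4 of 9 in RYGB against Sham AL, 1 of 9 in RYGB against BWm and 2 of 9 in BWm against Sham AL, beside 12.9%, 18.4% and 15.3% of all genes. The methods' one-way test with a fold change of at least 1.5 also called 0 of the 9 genes in each comparison, with or without adjustment. The largest fold changes among the 9 genes were 1.45 in RYGB against Sham AL, 1.33 in RYGB against BWm and 1.47 in BWm against Sham AL. Their median differences were 0.08, 0.1 and 0.15 on the log2 scale in that order of comparisons, beside 0, 0 and -0.01 over all genes.

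**Figure D1:**
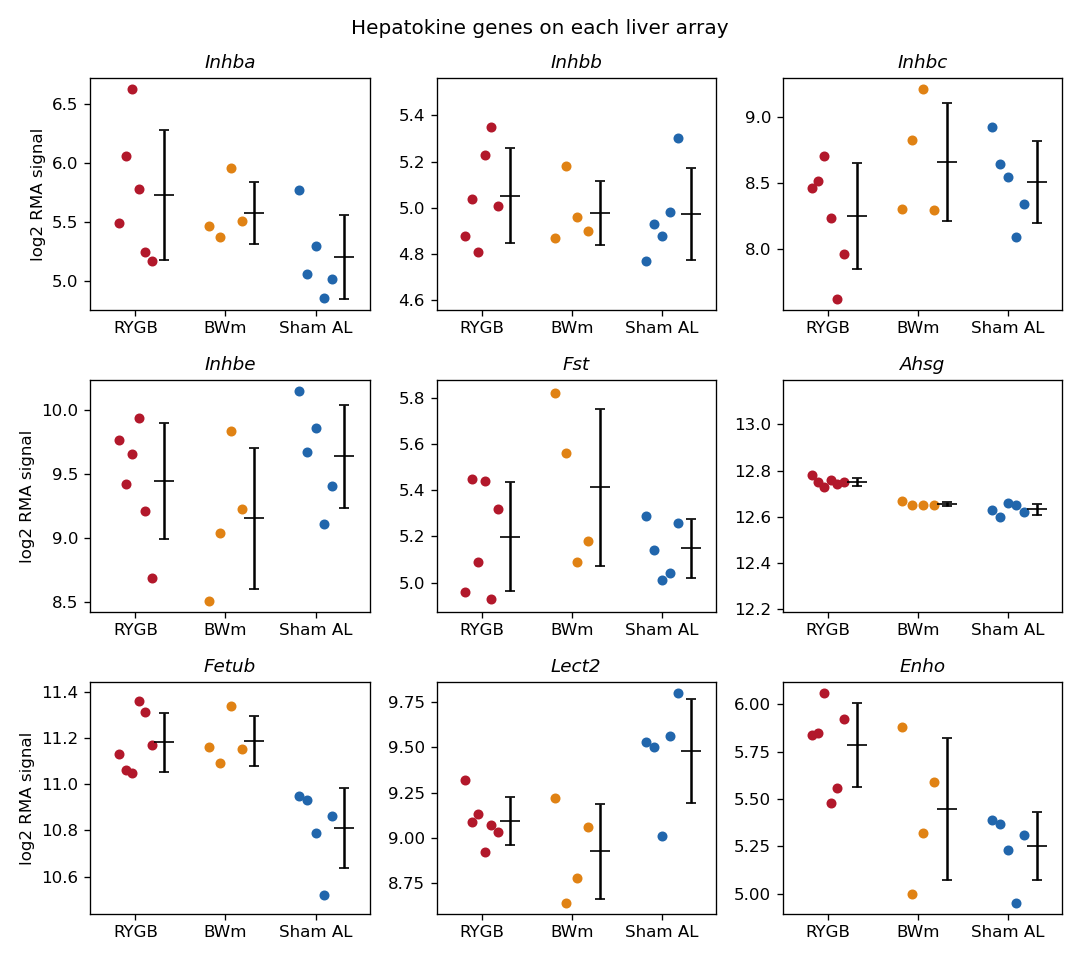
Log2 signals after robust multi-array averaging (RMA, vertical axes) for the 9 hepatokine genes, with 1 point per liver array in RYGB, BWm and Sham AL and the group mean and SD beside the points. Fetub lies higher in RYGB (11.05 to 11.36) and BWm (11.09 to 11.34) than in Sham AL (10.52 to 10.95), while the groups overlap for Inhba, Inhbb, Inhbc, Inhbe and Fst.

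The array medians lay between 3.89 and 4.02 log2 units, and Pearson's r between any 2 arrays was 0.967 to 0.991. Sham AL replicate 4 stood apart: the mean log2 signal of 5 adipocyte markers was 8.25 there, against 3.11 to 4.12 on the other 14 arrays, and that of 5 adrenal cortex markers was 9.34, against 2.57 to 3.04. The adipocyte markers averaged 3.13 to 3.42 in RYGB and 3.11 to 3.50 in BWm, below every Sham AL array, the lowest of which was 3.63. Of these 5 markers, Cidea was lower against Sham AL in RYGB (-2.60 ± 0.56) and BWm (-2.67 ± 0.62), with no overlap (limma adjusted p = 0.024 for both). Adipoq, Lep, Plin1 and Ucp1 overlapped with Sham AL in both comparisons and passed in neither. Their limma adjusted p values were 0.46 to 0.52 for RYGB and 0.37 to 0.52 for BWm. Among these 5 markers, Cidea alone set RYGB and BWm apart from every Sham AL array. Whether Sham AL livers other than replicate 4 held fat tissue was not tested. The Cidea differences include Sham AL replicate 4 (SD of Sham AL 1.9), and none without that array is given here. Sham AL replicate 4 was also the lowest of the Sham AL arrays for Inhba, Inhbc, Inhbe, Fetub and Enho, and its values are given where they bear on a result. The mean log2 signal of 7 hepatocyte markers was 12.04 to 12.15 in BWm. That was above all RYGB arrays (11.77 to 12.02) and all Sham AL arrays (11.82 to 12.01). The 7 markers did not move alike. In BWm against Sham AL, Cps1 alone passed (0.44 ± 0.10, limma adjusted p = 0.023). Hnf4a and Tat differed by 0.62 and 0.25, and Alb, Ttr, Apoa1 and Apob by 0.03, -0.03, 0.04 and -0.02. None passed in RYGB against BWm. The 6 Kupffer cell markers averaged 7.51 to 7.96 in RYGB, 7.14 to 8.04 in BWm and 7.01 to 7.66 in Sham AL, and 1 of them, Adgre1, was higher in RYGB against Sham AL by 0.64 ± 0.14 (limma adjusted p = 0.025). The 5 neutrophil markers averaged 2.61 to 3.61 in RYGB, 2.44 to 2.84 in BWm and 2.37 to 2.89 in Sham AL. RYGB replicates 4, 5 and 6, at 3.12, 3.61 and 3.29, lay above all other arrays. All these averages were below the lowest array median of 3.89, and none of the 5 markers passed in any comparison. In RYGB against Sham AL, S100a8 (0.78), Ngp (0.73), S100a9 (0.28) and Camp (0.05) were higher and Ly6g (-0.13) was lower. The part of these markers in the results for the hepatokine genes was not tested.

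Inhba encodes the βA subunit of activin A. Its log2 signal in RYGB ran from 5.17 to 6.63 with a median of 5.63. It was 5.47, 5.37, 5.96 and 5.51 in BWm and 5.77, 5.06, 5.30, 4.86 and 5.02 in Sham AL. RYGB replicate 3 had the highest value of all 15 arrays, and the groups overlapped. Group means were 5.73 ± 0.55 in RYGB (SD, n = 6), 5.58 ± 0.26 in BWm (n = 4) and 5.20 ± 0.36 in Sham AL (n = 5). RYGB minus Sham AL was 0.53 ± 0.23 on the log2 scale (SE, unadjusted 95% interval 0.05 to 1, limma adjusted p = 0.32). Leaving out RYGB replicate 3 gave 0.35, and leaving out Sham AL replicate 4 gave 0.44. Without Sham AL replicate 1, the highest Sham AL array, the difference was 0.67. A block for animal numbers under 50 in the labels gave 0.32. BWm minus Sham AL was 0.37 ± 0.25, with a limma adjusted p of 0.53.

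Inhbb encodes the βB subunit of activin B and inhibin B. Its group means lay close together, at 5.06 ± 0.20 in RYGB, 4.98 ± 0.14 in BWm and 4.97 ± 0.20 in Sham AL, and single arrays spanned 4.77 to 5.35. The difference between RYGB and Sham AL was 0.08, with an unadjusted 95% interval of -0.16 to 0.33 (limma adjusted p = 0.83).

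Inhbc and Inhbe encode the βC and βE subunits. Inhbc ran from 7.62 to 8.70 in RYGB with a median of 8.34. It was 8.30, 8.82, 9.21 and 8.29 in BWm and 8.92, 8.64, 8.54, 8.09 and 8.34 in Sham AL. The lowest Inhbc values, 7.62 and 7.96, were RYGB replicates 5 and 6, but the other RYGB arrays lay within the range of the sham groups. RYGB minus BWm was -0.41 ± 0.22 (unadjusted 95% interval -0.87 to 0.04, limma adjusted p = 0.34), and RYGB minus Sham AL was -0.26 ± 0.20 (limma adjusted p = 0.65). Over 26 other limma settings, RYGB minus BWm for Inhbc ran from -0.70 to -0.23, with adjusted p values of 0.039 to 0.70. The smallest difference came without BWm replicate 3, the highest array. The largest, the 1 setting past the threshold, had as a block whether the animal number in the labels was under 50. What the numbers mean is not stated, and no BWm mouse had a number under 50.

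Inhbe ran from 8.69 to 9.94 in RYGB with a median of 9.54. It was 8.51, 9.04, 9.84 and 9.23 in BWm and 10.15, 9.67, 9.86, 9.11 and 9.41 in Sham AL. All groups overlapped, and the BWm arrays alone covered 8.51 to 9.84. BWm minus Sham AL was -0.48 ± 0.27 (unadjusted 95% interval -1.04 to 0.08, limma adjusted p = 0.42), and -0.62 without Sham AL replicate 4. RYGB minus BWm was 0.29 ± 0.26 and RYGB minus Sham AL was -0.19 ± 0.24, with limma adjusted p values of 0.63 and 0.80.

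Inhbe and Inhbc are adjacent genes on chromosome 10 in the RefSeq table, with 0 protein-coding genes between them. Over the 15 arrays, Pearson's r of the 2 genes was 0.524 and Spearman's rho 0.496. After subtraction of group means they varied together, at r = 0.729 and rho = 0.693. Permutation p values after that subtraction were 0.0072 and 0.012 (arrays shuffled within groups, two-sided). Adjusted over the 2 neighbour pairs examined, these p values were 0.014 and 0.024. RYGB replicate 6 and BWm replicate 1 were farthest from the median for Inhbe, and r was 0.705 without them. The arrays share their whole RNA sample, so sample composition enters both genes. Between groups, Inhbe and Inhbc differed in opposite directions in BWm against Sham AL (-0.48 and 0.15) and in RYGB against BWm (0.29 and -0.41). In RYGB against Sham AL both were lower (-0.19 and -0.26). Whether neighbours vary together more than other pairs of genes was not tested.

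Fst encodes follistatin. It ran from 4.93 to 5.45 in RYGB with a median of 5.21. It was 5.82, 5.56, 5.09 and 5.18 in BWm and 5.29, 5.14, 5.01, 5.04 and 5.26 in Sham AL. BWm replicate 1 was the highest of all arrays and the other values overlapped between groups. The difference of RYGB minus Sham AL was 0.05 ± 0.14 (unadjusted 95% interval -0.24 to 0.34, limma adjusted p = 0.92), and BWm minus Sham AL was 0.26 ± 0.15 (limma adjusted p = 0.45).

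The genes most like Inhbe over the 15 arrays, out of all genes tested, were Smpd4 (a sphingomyelinase, r = 0.909), Iqce (r = 0.827) and 1810055G02Rik (r = 0.819). These were 0.901, 0.799 and 0.833 after subtraction of group means. For Fst the most like genes were Vmn2r98 (r = 0.856), Olfr294 (r = 0.854) and Abhd11 (r = 0.803), of which Vmn2r98 and Olfr294 belong to vomeronasal and olfactory receptor families. After subtraction of group means these were 0.858, 0.826 and 0.75. The hepatokine gene most like Fst was Fetub, at r = 0.215, and at -0.0083 after that subtraction. These correlations were picked as the highest among all genes, share the arrays and are a description with no test.

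Ahsg encodes fetuin-A. Its log2 signal ran from 12.73 to 12.78 in RYGB with a median of 12.75. It was 12.67, 12.65, 12.65 and 12.65 in BWm and 12.63, 12.60, 12.66, 12.65 and 12.62 in Sham AL. All 6 RYGB arrays lay above all BWm and Sham AL arrays. RYGB minus Sham AL was 0.12 ± 0.07 (1.09-fold, unadjusted 95% interval -0.03 to 0.27, limma adjusted p = 0.51), and RYGB minus BWm was 0.10 ± 0.08 (1.07-fold, limma adjusted p = 0.58). The pooled SD of the arrays for Ahsg was 0.0184, and limma's moderated SD, which borrows from all genes, was 0.118, or 6.43 times as large. The methods' one-way test, which does not borrow, gave p values of 4.3e-06 for RYGB against Sham AL and 6.2e-06 for RYGB against BWm. Adjusted by Benjamini-Hochberg these were 0.012 and 0.0086, and both fold changes were under the 1.5 that the methods ask for. The highest value of any gene on any array was 13.05, so Ahsg was near the top of the scale, and whether its probes were close to saturation was not measured.

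Fetub encodes fetuin-B. It ran from 11.05 to 11.36 in RYGB with a median of 11.15. It was 11.16, 11.09, 11.34 and 11.15 in BWm and 10.95, 10.93, 10.79, 10.52 and 10.86 in Sham AL. All RYGB and BWm arrays lay above all Sham AL arrays, while RYGB and BWm overlapped. RYGB minus Sham AL was 0.37 ± 0.10 (1.29-fold, unadjusted 95% interval 0.16 to 0.58, limma adjusted p = 0.080), and BWm minus Sham AL was 0.37 ± 0.11 (1.30-fold, interval 0.14 to 0.61, limma adjusted p = 0.083). RYGB minus BWm was 0.00, with an interval of -0.23 to 0.22. Without Sham AL replicate 4, the lowest array, both differences from Sham AL were 0.30, with limma adjusted p values of 0.18 for RYGB and 0.17 for BWm.

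Lect2 encodes LECT2. It ran from 8.92 to 9.32 in RYGB with a median of 9.08. It was 9.22, 8.64, 8.78 and 9.06 in BWm and 9.53, 9.50, 9.01, 9.56 and 9.80 in Sham AL. Sham AL replicate 3, at 9.01, lay within the range of the other groups, and the remaining 4 Sham AL arrays lay above every RYGB and BWm array. BWm minus Sham AL was -0.56 ± 0.15 (1.47-fold lower in BWm, unadjusted 95% interval -0.87 to -0.25, limma adjusted p = 0.051). RYGB minus Sham AL was -0.39 ± 0.13 (1.31-fold lower in RYGB, interval -0.67 to -0.11, limma adjusted p = 0.20). For BWm against Sham AL the limma adjusted p was 0.013 at -0.67 without Sham AL replicate 3, and 0.034 at -0.65 without BWm replicate 1. Only these 2 of the fits with 1 array left out passed. Limma adjusted p values ran up to 0.19 in the others, and the smallest difference was -0.46, without BWm replicate 2. Without Sham AL replicate 4 the difference was -0.54 (limma adjusted p = 0.088). RYGB minus BWm was 0.17 ± 0.14 (limma adjusted p = 0.60).

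Enho encodes adropin. It ran from 5.48 to 6.06 in RYGB with a median of 5.84. It was 5.88, 5.00, 5.32 and 5.59 in BWm and 5.39, 5.37, 5.23, 4.95 and 5.31 in Sham AL. Every RYGB array lay above every Sham AL array, while BWm overlapped both. The RYGB livers exceeded Sham AL by 0.54 ± 0.15 (1.45-fold, unadjusted 95% interval 0.23 to 0.84, limma adjusted p = 0.084), and 0.46 without Sham AL replicate 4 (limma adjusted p = 0.17). RYGB minus BWm was 0.34 ± 0.16 (interval 0.01 to 0.67, limma adjusted p = 0.25). It was 0.19 without BWm replicate 2, the lowest BWm array, and 0.48 without BWm replicate 1, the highest. With 1 array left out, limma adjusted p values for this difference ran from 0.085 to 0.60.

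Groups did not overlap for 3 of the 9 genes in RYGB against Sham AL (Ahsg, Fetub and Enho, all higher), beside 2.39% of all genes, 1.58% higher and 0.812% lower. They did not overlap for Ahsg in RYGB against BWm, beside 7.61% of all genes (4.71% higher, 2.91% lower), and for Fetub in BWm against Sham AL, beside 6.85% (3.46% higher, 3.39% lower). Over 26 limma settings besides the default, Lect2 passed in 6 in BWm against Sham AL, and Fetub in 3 in RYGB against Sham AL and 2 in BWm against Sham AL. Enho passed in 1 in RYGB against Sham AL and Inhbc in 1 in RYGB against BWm. In the plot of differences, the unadjusted intervals lie clear of 0 for Inhba, Fetub, Lect2 and Enho in RYGB against Sham AL, for Enho in RYGB against BWm, and for Fetub and Lect2 in BWm against Sham AL.

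**Figure D2:**
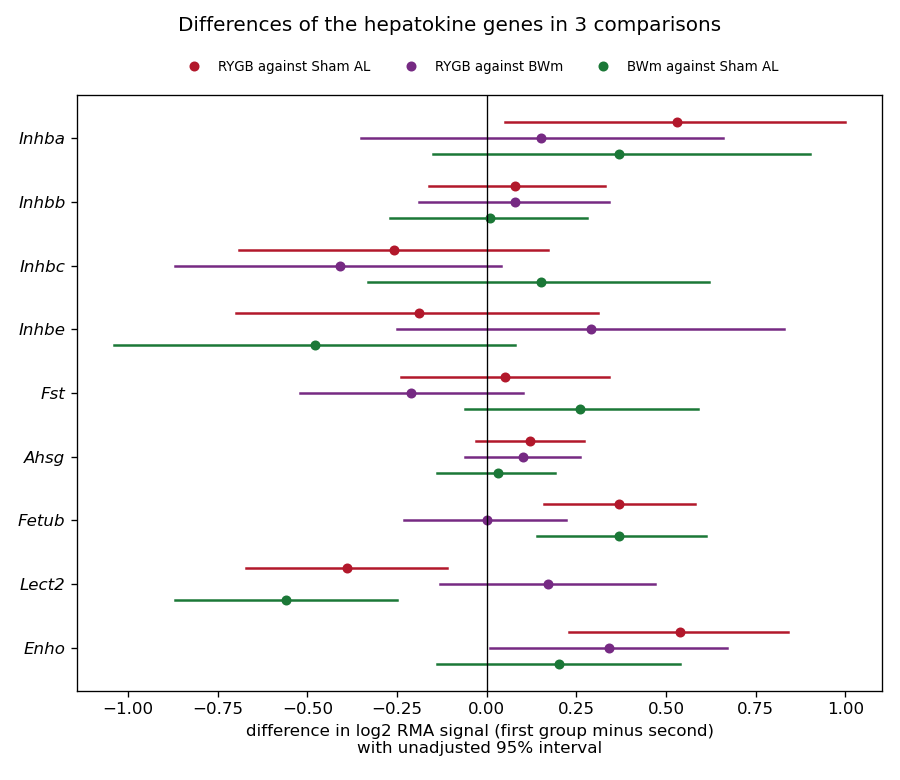
Differences in log2 RMA signal (horizontal axis) with unadjusted 95% intervals for the 9 hepatokine genes, in RYGB against Sham AL, RYGB against BWm and BWm against Sham AL, first group minus second. Fetub stands at 0.37 for both comparisons with Sham AL and at 0.00 between RYGB and BWm, and Lect2 at -0.39 and -0.56 against Sham AL.

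**Figure D3:**
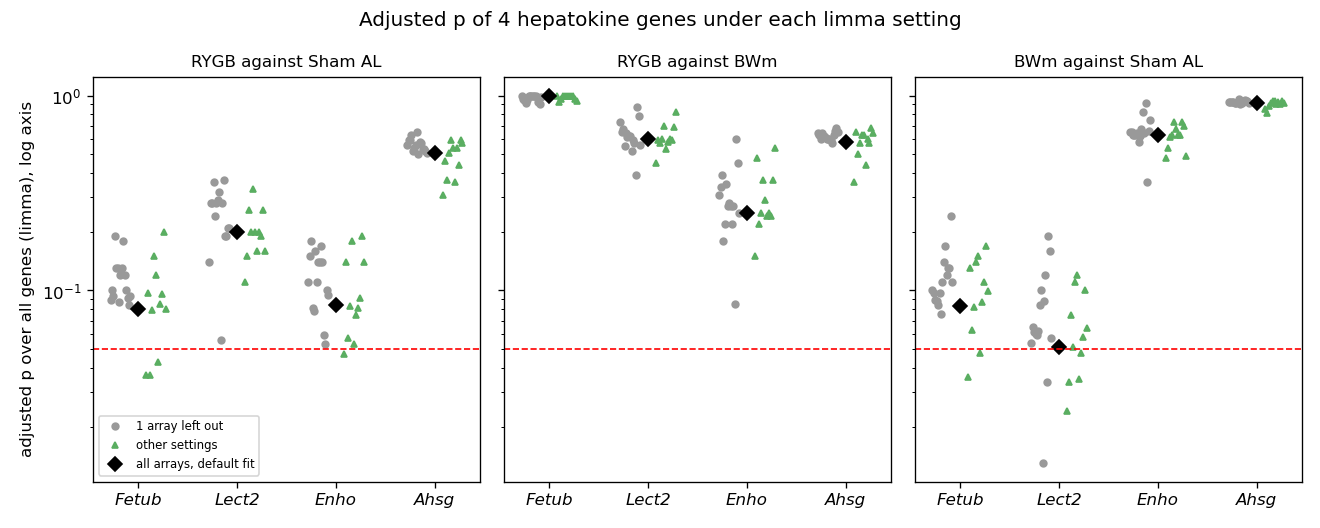
Adjusted p (vertical log axis) of Fetub, Lect2, Enho and Ahsg in each comparison, with all arrays in the default fit (diamonds), with 1 array left out (circles) and under other settings (triangles), and the 0.05 threshold as a dashed line. Lect2 in BWm against Sham AL ran from 0.013 to 0.19 and Fetub from 0.036 to 0.24, and Ahsg stayed above the threshold in every setting drawn.

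The fetuin genes lie on chromosome 16 in the order Ahsg, Fetub, Hrg, Kng2 and Kng1, with 0 protein-coding genes between neighbours in the RefSeq table. Hrg encodes histidine-rich glycoprotein, and the Kng genes encode kininogens, relatives of the fetuins that carry cystatin domains. In BWm against Sham AL, Kng2 rose by 0.42 ± 0.11 (limma adjusted p = 0.044), with 10.04, 10.38, 10.17 and 10.19 in BWm and 9.76, 9.90, 9.69, 9.53 and 10 in Sham AL. This call was lost in 13 of 15 fits that left out 1 array (all but those without Sham AL replicate 5 or BWm replicate 1), with limma adjusted p values up to 0.16 without BWm replicate 2. In the same comparison, BWm minus Sham AL was 0.29 ± 0.12 for Hrg (limma adjusted p = 0.21), with all BWm arrays above all Sham AL arrays, and 0.19 ± 0.11 for Kng1 (limma adjusted p = 0.46, groups overlapping). For Kng2, Hrg and Kng1, RYGB minus Sham AL was 0.31 ± 0.10, 0.08 ± 0.10 and 0.11 ± 0.10, with limma adjusted p values of 0.14, 0.81 and 0.73. Kng1 and Kng2 are similar in sequence and can share probe signal. Within groups, no shared variation of Fetub and Ahsg was detected: r was -0.347 and rho -0.261 over 15 arrays, with permutation p values of 0.31 and 0.39 (adjusted over the 2 pairs, also 0.31 and 0.39). Without Sham AL replicate 4 and RYGB replicate 4, r was -0.291.

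**Figure D4:**
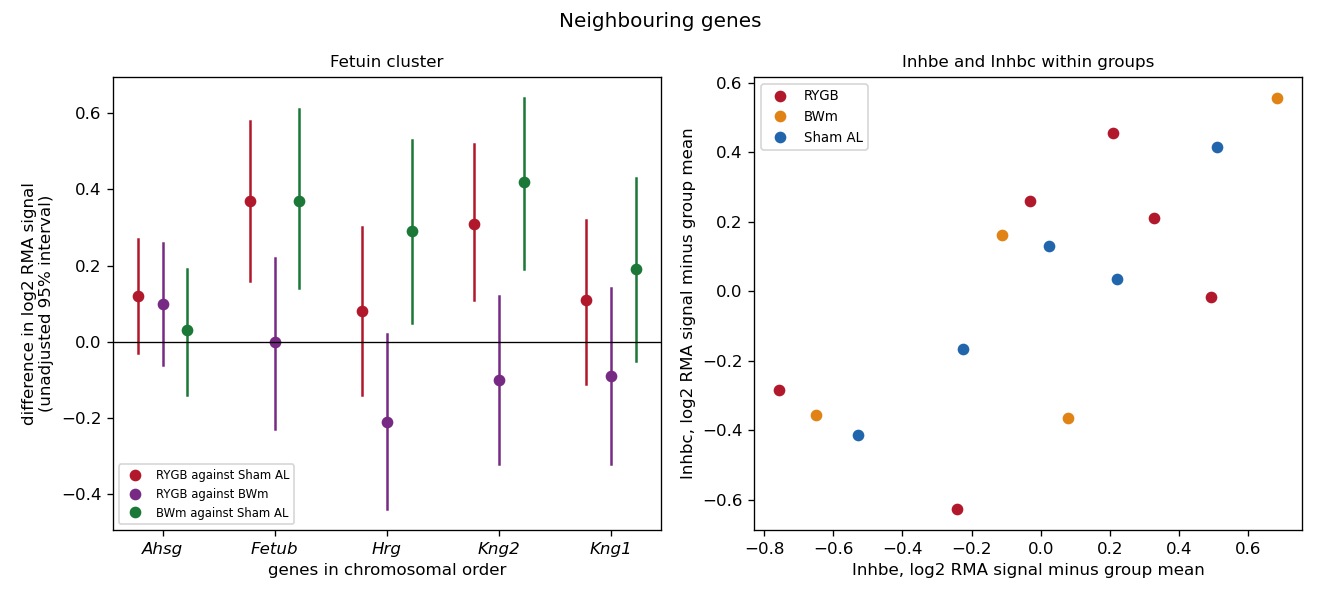
Left, differences in log2 RMA signal with unadjusted 95% intervals for the 5 neighbouring genes of the fetuin cluster in chromosomal order. Right, Inhbc against Inhbe on each of the 15 arrays as log2 RMA signal minus the group mean, where the 2 genes rise together (r = 0.729).

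Among the genes that handle activin signals, 25 of 26 listed were measured. The call rule passed 1 of them in RYGB against Sham AL (lower), 3 in RYGB against BWm (1 higher, 2 lower) and 1 in BWm against Sham AL (higher), beside 1.38%, 6.36% and 2.84% of all genes. Their median differences were -0.05, -0.07 and 0.02. None of the 3 ligand genes outside the members, Inha, Mstn and Gdf11, and none of the 6 antagonist or co-receptor genes passed in any comparison.

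Of the 5 activin receptor genes, Acvr1b and Acvr2b passed in RYGB against BWm, in opposite directions. Acvr1b, the type I receptor ALK4, ran from 6.08 to 6.52 in RYGB with a median of 6.19, and was 6.06, 5.63, 5.73 and 5.65 in BWm. The groups did not overlap, and RYGB minus BWm was 0.47 ± 0.11 (limma adjusted p = 0.019). Acvr2b, a type II receptor, ran from 4.60 to 5.12 in RYGB with a median of 4.77, and was 5.48, 5.20, 5.11 and 5.56 in BWm. RYGB replicate 1 overlapped with BWm replicate 3, and RYGB minus BWm was -0.51 ± 0.13 (limma adjusted p = 0.024). Against Sham AL neither passed: RYGB minus Sham AL was 0.20 ± 0.11 for Acvr1b and -0.24 ± 0.12 for Acvr2b. Acvr1c, the receptor for activin E in fat cells, had a RYGB minus Sham AL difference of -0.33 ± 0.27 (limma adjusted p = 0.68). Its mean log2 signal was 2.92 in Sham AL and lower in RYGB and BWm, below the lowest array median of 3.89. The SD was 0.84 in Sham AL, against 0.26 in RYGB and 0.3 in BWm. The part of Sham AL replicate 4, the array with high adipocyte markers, in this difference was not tested.

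The Acvr1b call was lost without BWm replicate 2, 3 or 4, with limma adjusted p values of 0.076, 0.059 and 0.06. The Acvr2b call was lost without RYGB replicate 4 or 5 or BWm replicate 1 or 4, with limma adjusted p values of 0.052, 0.051, 0.077 and 0.086.

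Pcsk6 encodes PACE4, a convertase that cleaves TGF-β family precursors. It ran from 7.97 to 8.59 in RYGB with a median of 8.48, and was 9.30, 9.23, 9.03, 8.75 and 8.98 in Sham AL, so the groups did not overlap. It was lower in RYGB by a difference of -0.65 ± 0.12 (limma adjusted p = 0.010). That call held in each of the 15 fits with 1 array left out. The methods' one-way test, adjusted by Benjamini-Hochberg, gave 0.1 for Pcsk6 and did not call it. In BWm, Pcsk6 was 8.64 to 8.77, above all RYGB arrays and overlapping with Sham AL. BWm minus Sham AL was -0.35 ± 0.13 (limma adjusted p = 0.19), and RYGB minus BWm was -0.30 ± 0.13 (limma adjusted p = 0.22). Smurf2, a ubiquitin ligase that limits SMAD signalling, fell by 0.38 ± 0.09 in RYGB against BWm (limma adjusted p = 0.020) and was higher by 0.43 ± 0.10 in BWm against Sham AL (limma adjusted p = 0.021). It was 8.15 to 8.40 in RYGB, 8.69, 8.65, 8.78 and 8.48 in BWm and 8.08 to 8.33 in Sham AL, so all BWm arrays lay above the others. The first call was lost without BWm replicate 1, 2 or 3, with limma adjusted p values of 0.055, 0.054 and 0.083. The second was lost without Sham AL replicate 4 or BWm replicate 1, 2 or 3, with 0.052, 0.052, 0.063 and 0.088.

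Of 7 cystatin relatives and partners of the fetuins, all measured, 0 passed in RYGB against Sham AL, 1 (Insr) in RYGB against BWm and 1 (Kng2) in BWm against Sham AL, beside 1.38%, 6.36% and 2.84% of all genes. Insr, the insulin receptor that fetuin-A inhibits, ran from 8.21 to 8.63 in RYGB with a median of 8.55, and was 8.87, 8.89, 8.79 and 8.89 in BWm and 8.56, 8.57, 8.56, 8.30 and 8.49 in Sham AL. The BWm arrays lay above all RYGB and all Sham AL arrays. RYGB minus BWm was -0.36 ± 0.10 (limma adjusted p = 0.035), BWm minus Sham AL was 0.36 ± 0.10 (limma adjusted p = 0.069) and RYGB minus Sham AL was 0.00 ± 0.09. This call was lost in 7 of 15 fits with 1 array left out (RYGB replicate 2, 3 or 4 or any BWm replicate), with limma adjusted p values of 0.055 to 0.091. Met, Tie1, Cd209a, Gpr19, Itga5 and Itgb1, named in the literature as receptors for LECT2, adropin or ANGPTL6, gave 0 of 6 calls in each comparison, beside the same shares of all genes.

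**Figure D5:**
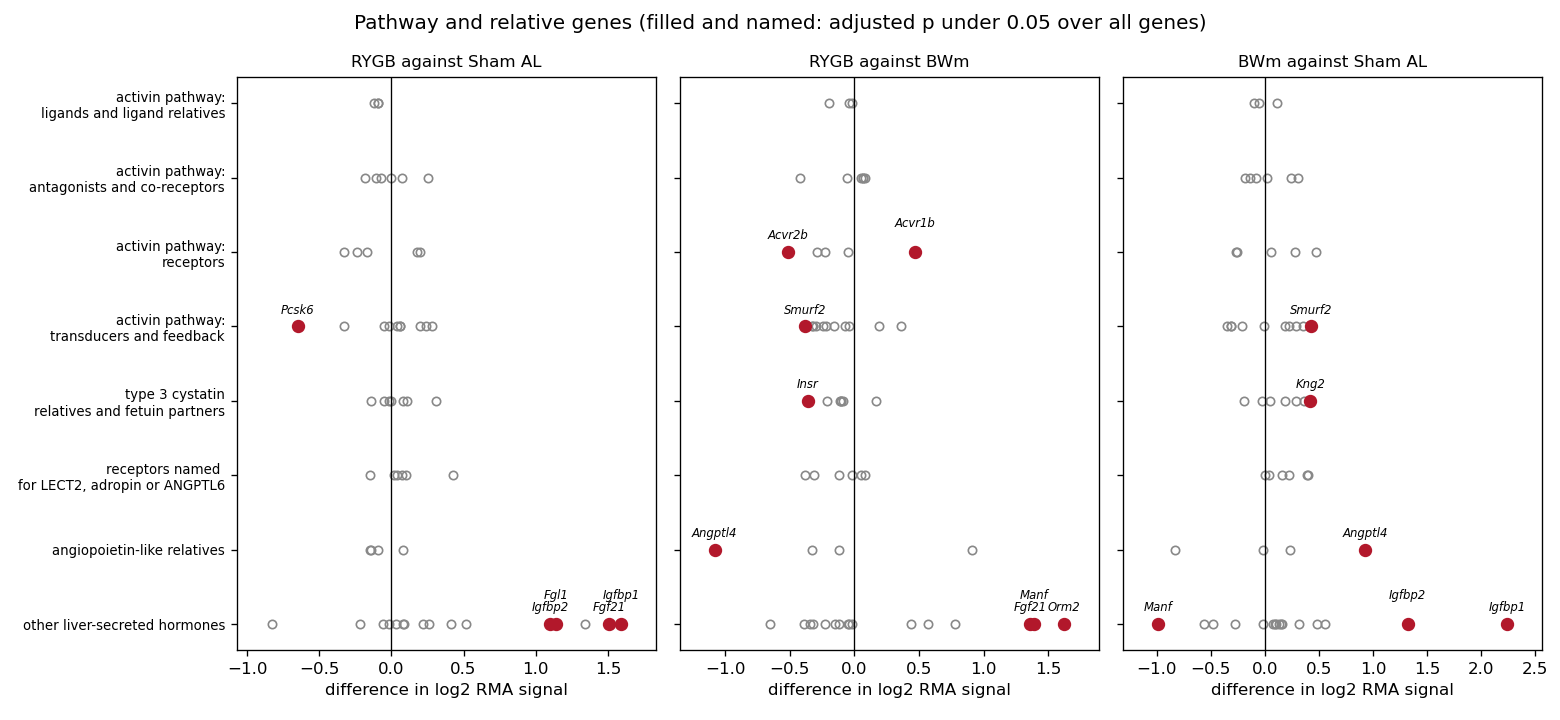
Differences in log2 RMA signal (horizontal axes) for 58 measured genes of the activin, fetuin, receptor, angiopoietin-like and other secreted lists (rows), in each comparison. Filled named points passed an adjusted p of 0.05, and the 4 calls in RYGB against Sham AL among other secreted hormones lie between 1.10 and 1.59.

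Among 16 other liver-secreted hormone genes measured, a list drawn up with earlier results of these data known, 4 rose and 0 fell in RYGB against Sham AL, beside 1.38% of all genes called. The counts were 3 and 0 in RYGB against BWm (6.36% of all genes called) and 2 and 1 in BWm against Sham AL (2.84%). Fgf21, a fasting and stress hormone, was higher by 1.51 ± 0.23 (limma adjusted p = 0.0022), with 6.15 to 7.60 in RYGB and 5.10 to 5.61 in Sham AL. Igfbp1, Igfbp2 (IGF-binding proteins) and Fgl1 (hepassocin) were higher by 1.59 ± 0.27, 1.10 ± 0.18 and 1.14 ± 0.24. In RYGB against BWm the calls were Fgf21 (1.36 ± 0.25), Manf (1.39 ± 0.14) and Orm2 (1.62 ± 0.42), with Manf, an ER stress response protein, at 5.38 to 5.96 in RYGB and 4.07 to 4.68 in BWm. In BWm against Sham AL, Igfbp1 and Igfbp2 were higher by 2.24 ± 0.30 and 1.32 ± 0.20, and Manf fell by 0.99 ± 0.15. Angptl4, an inhibitor of lipoprotein lipase related to ANGPTL6, was lower by 1.08 ± 0.16 in RYGB than in BWm (limma adjusted p = 0.00034). It was higher by 0.93 ± 0.16 in BWm against Sham AL (limma adjusted p = 0.0038). RYGB minus Sham AL was -0.15 ± 0.15 (limma adjusted p = 0.73), and all BWm arrays lay above all RYGB and Sham AL arrays. Leaving out Sham AL replicate 1 or 3, or RYGB replicate 3, 4 or 6, ended the Fgl1 call, with limma adjusted p values of 0.053 to 0.072. The Orm2 call was lost without RYGB replicate 4, 5 or 6 or BWm replicate 3 or 4, with limma adjusted p values of 0.054 to 0.12.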

How the data were processed

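The deposited values are log2 signals, which the authors computed by the robust multi-array average (RMA) from the 15 arrays in Affymetrix Expression Console 1.4.1.46, per the labels and the series' design text. The probe annotation's version is not given in the sources used here. Signal over background is not reported, since scanner output was not used. Of the clusters, 23521 had 1 symbol in the probe table, 1814 had several and 16010 had none. Where a gene had over 1 cluster (1082 genes), the brightest on average was kept, giving 22180 genes without any filter on low values.

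The 3 comparisons were contrasts in 1 limma fit (limma 3.58.1, R 4.3.3, lmFit and eBayes) fitted to all 15 arrays (12 residual degrees of freedom, 5.85 prior). P values are two-sided, adjusted by Benjamini-Hochberg over all genes at 0.05, and errors after differences are standard errors. Tables and figures used Python 3.11.15, pandas 2.3.3 and matplotlib 3.10.9. The fit was tested on simulated data. The titles call the arrays biological replicates, and their number limits the precision.

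Members and pathway lists were chosen with earlier results of these data known. By rule, all members were named, with the pathway genes past the threshold in at least 1 comparison and, since no member passed, the 3 genes most like Inhbe and Fst. Uncalled list genes such as Acvr1c, Hrg and Kng1 were named outside that rule, after their values were seen. Correlations between neighbouring genes used 1e+05 permutations within groups. Some genes on the lists are not reported here.

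Replicate numbers did not pair arrays: deviations of same-numbered arrays correlated between -0.17 and 0.19. Alternatives were another normalization, a level filter, other cluster rules, other variance priors, array weights, blocks, the methods' one-way test and each array left out.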

Additional observations from a re-analysis of the deposited data

Results flagged for a closer look

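Of 27 groups of hepatokine gene values and 39 groups of called pathway gene values examined for an array far from the rest of its group (about 1 in 20 groups would be picked out by chance), 2 were picked out, and 0 of them among the hepatokine genes. Angptl4 was 8.23 on RYGB replicate 3, below the other RYGB arrays at 8.70 to 8.97. Manf was 4.68 on BWm replicate 1, above the other BWm arrays at 4.07 to 4.16.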

How the results depend on the processing

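Over 27 member differences and 28 settings, 727 values kept their direction and their side of the threshold, 13 passed the threshold that the default fit missed, 0 the reverse, and 16 changed sign. The count of hepatokine genes called, 0 by default, became 2 in RYGB against Sham AL when only the 11090 genes above the median level were tested (Fetub and Enho, adjusted p 0.037 and 0.047), which by construction adjusts over fewer genes, 1 with array medians subtracted (Fetub, 0.037) and 1 with a trended variance prior (Fetub, 0.043). In BWm against Sham AL it became 2 with the level filter (Fetub and Lect2, 0.036 and 0.024), 2 with the trended prior (Fetub and Lect2, 0.048 and 0.035), 1 with quantile normalization (Lect2, 0.034), 1 with a robust prior (Lect2, 0.048), and 0 to 1 with 1 array left out. In RYGB against BWm it became 1 with a block for animal numbers under 50 (Inhbc, -0.7, adjusted p 0.039). That block ended the calls of Acvr1b (0.062), Smurf2 (0.058) and Insr (0.093) in RYGB against BWm and of Kng2 (0.054) in BWm against Sham AL. Animal numbers under 50 fell to 3 RYGB, 0 BWm and 1 Sham AL mice, and what they mean is not stated. The level filter also re-estimates the variance prior on the genes kept. The cause of these changes was not tested for any setting. Some signs changed. Fetub in RYGB against BWm, 0.00 by default, was 0.03 with quantile normalization and 0.02 with medians subtracted. It was 0.03 with the animal number block and -0.04 to 0.05 with 1 array left out. Inhba there, 0.15 by default, was -0.19 with that block and -0.03 to 0.28 with 1 array left out. Inhbb in BWm against Sham AL, 0.01 by default, was -0.05 with that block and -0.06 to 0.09 with 1 array left out. Inhbc there, 0.15 by default, was -0.04 to 0.27 with 1 array left out, the lowest without BWm replicate 3.

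With a replicate block, 0 of 9 hepatokine genes were called in each comparison, at adjusted p values of 0.2, 0.26 and 0.19 for Fetub, Lect2 and Enho in RYGB against Sham AL, and 0.17 and 0.1 for Fetub and Lect2 in BWm against Sham AL. The replicate numbers gave no pairing: in each comparison 1 array correlated best with its own number. The block gave 174, 903 and 325 calls over all genes, in RYGB against Sham AL, RYGB against BWm and BWm against Sham AL, where the default gave 306, 1411 and 629. It ended the calls of Fgl1 (0.062), Acvr1b (0.059), Smurf2 (0.058 and 0.06), Insr (0.069), Orm2 (0.14) and Kng2 (0.084). Other counts over all genes past 1.5 times were 169 with all clusters in RYGB against Sham AL, 1011 with the level filter in BWm against Sham AL, 857 with the methods' one-way test in RYGB against BWm, and 34, 441 and 52 with that test adjusted. With 1 array left out they were 144 to 398, 930 to 1544 and 284 to 646. Pathway calls, 5, 8 and 6 by default, became 5 with all clusters, 5 with the replicate block and 4 with the methods' test in RYGB against BWm, 10 with the level filter in BWm against Sham AL, and 0, 2 and 1 with that test adjusted. With 1 array left out they were 4 to 7, 4 to 10 and 4 to 6. In RYGB against Sham AL the adjusted one-way test ended the calls of Pcsk6 (0.1), Fgf21 (0.063), Igfbp1 (0.083), Igfbp2 (0.089) and Fgl1 (0.16). The alternatives for pathway genes were chosen after seeing the data.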
